A study of Mus musculus with 27 samples.

Results

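RNA of 8 delta-protocadherin genes (Pcdh1, Pcdh7, Pcdh8, Pcdh9, Pcdh10, Pcdh17, Pcdh18 and Pcdh19) was described across limb bud mesenchyme made from mouse ES cells and across embryonic tissues. They are 8 of the 23279 genes in the deposited table, and all 8 passed the filter on low values. The family was chosen by the measured level of Pcdh10, which stood far above the embryonic tissues in the sorted ES cell-derived libraries. Differences between ES cell-derived and embryonic groups are therefore given as a description with no test, and tests are given only between embryonic groups, between the 2 ES cell-derived groups and for the difference of such differences.

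Protocadherins are cadherin-related proteins of the plasma membrane with a single membrane-spanning segment. Unlike the clustered protocadherins, the delta-protocadherins are encoded by separate genes scattered over the genome, and most are best known from the developing nervous system, where they bind like to like between cells and take part in cell sorting, axon outgrowth and cell movement. They fall into delta1 members (here Pcdh1, Pcdh7 and Pcdh9), which have the longer extracellular part and a cytoplasmic motif that binds protein phosphatase 1, and delta2 members (here Pcdh8, Pcdh10, Pcdh17, Pcdh18 and Pcdh19), several of which recruit the WAVE actin regulatory complex through their cytoplasmic tail. In mesoderm the best known member is Pcdh8, also called paraxial protocadherin, which marks the presomitic mesoderm and forming somites.

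The RefSeq annotation of GRCm38, the build to which the reads were mapped, places the 8 genes on 5 chromosomes (strands are from GENCODE). Pcdh10 (chr3:45378398-45434579, plus strand) and Pcdh18 (chr3:49743291-49757383, minus strand) share chromosome 3. Pcdh8 (chr14:79766772-79771312, minus strand), Pcdh17 (chr14:84443563-84537565, plus strand) and Pcdh9 (chr14:93013700-93892834, minus strand) share chromosome 14. Pcdh7 lies at chr5:57716145-58133236 (plus strand), Pcdh1 at chr18:38185914-38212048 (minus strand) and Pcdh19 at chrX:133582860-133689044 (minus strand).

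The libraries were made from total RNA by stranded, poly(A)-selected RNA-seq, with 9 groups of 3 libraries. The groups ES–FLB and ES–HLB hold forelimb and hindlimb bud-like mesenchyme from aggregates of the ES cell line EB5 carrying Hand2::GFP on 1 allele, cultured with BMP4 and Matrigel, then with retinoic acid for the forelimb type or an antagonist of it for the hindlimb type, and with Wnt3 and the BMP inhibitor LDN193189 in the last steps. On day 9 of culture many aggregates were dissociated together and the GFP-positive cells were sorted. The embryonic groups were whole tissues of strain Slc:ICR with no sorting named: early forelimb bud (early FLB) and early hindlimb bud (early HLB), both labelled E10.0, and at E10.5 the forelimb bud (E10.5 FLB), hindlimb bud (E10.5 HLB), the tail bud (TB), the branchial arch (BA) and cardiac tissue (Ca, called heart). The study describes the early HLB as older than the early FLB, so limb type and stage cannot be told apart between them. Culture, sorting, cell line and strain cannot be told apart from the difference between ES cell-derived and embryonic groups. Between ES–FLB and ES–HLB, limb type cannot be told apart from the treatment with retinoic acid or its antagonist. The labels do not say that the libraries of a group came from separate cultures or litters, and p-values then measure only the spread between these libraries, which may be technical.

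One library, replicate 2 of the E10.5 HLB, was left out because 8501 genes, Pcdh7 and Pcdh19 among them, lay in regions where nearly all values were listed at 0, so that n = 2 in that group and n = 3 in the other 8. The remaining 26 libraries held 5543751 to 22141959 reads on genes. A limit set by 3 reads, which covers counting error only and is called the floor, lay between 0.147 and 0.541 CPM (counts per 1000000 reads) on the scale used here. The early limb buds were sequenced most deeply (19642074 to 22141959 reads) and the E10.5 limb buds least deeply (5543751 to 5908832), so depth moved with stage. Limb mesenchyme markers summed to 1662 to 2281 CPM in the embryonic limb buds and 2032 to 2155 CPM in ES–FLB and ES–HLB. BA, at 1640 to 1681 CPM, overlapped early FLB, at 1662 to 1752 CPM, and the list includes the sort gene Hand2. Ca and TB were at most at 643 CPM. Tbx5 fitted the labels, at 70.7 CPM in ES–FLB against 3.15 CPM in ES–HLB. Endothelial markers summed to 332 to 1138 CPM in the embryonic groups against 43.5 to 73.3 CPM in the sorted groups, and erythroid markers to 2298 CPM or more against 173 CPM or less, so the embryonic libraries held blood and vessel RNA that the sorted ones held little of. In such bulk samples, fewer cells of a type and less RNA per cell cannot be told apart.

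The 8 genes did not share a pattern. By group means per length of exon, Pcdh7 was the most abundant member in the heart and Pcdh18 in the other 8 groups, with Pcdh8 close behind it in the tail bud. In single libraries the order differed, with Pcdh18 above Pcdh7 in Ca replicate 3 and Pcdh8 above Pcdh18 in TB replicate 2. Summed over the 8 genes, the level per kb of exon was 38.1 ± 2.8 CPM in early FLB, 43.7 ± 3.7 CPM in early HLB, 52.4 ± 2.8 CPM in E10.5 FLB and 43.0 ± 1.8 CPM in E10.5 HLB (SD). Among the other embryonic tissues it was 46.2 ± 0.65 CPM in BA, 42.0 ± 0.73 CPM in TB and 25.7 ± 3.7 CPM in Ca. In ES–FLB it was 81.2 ± 1.6 CPM and in ES–HLB 98.5 ± 0.33 CPM, above every embryonic library, the highest of which was at 54.4 CPM. Pcdh18 made up 67.2% to 75.4% of this sum in the limb buds, BA and both ES cell-derived groups, 39.8% in Ca and 38.1% in TB. Pcdh10 made up 0.195% in early FLB, 4.19% in E10.5 FLB, 8.37% in BA, 12.8% in ES–FLB and 14.6% in ES–HLB. The exon union of Pcdh10 is 15888 bases and its longest transcript 8234 bases, and by the longest transcripts its share was 0.338% in early FLB, 7.27% in E10.5 FLB, 21.1% in ES–FLB and 23.8% in ES–HLB.

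**Figure D1:**
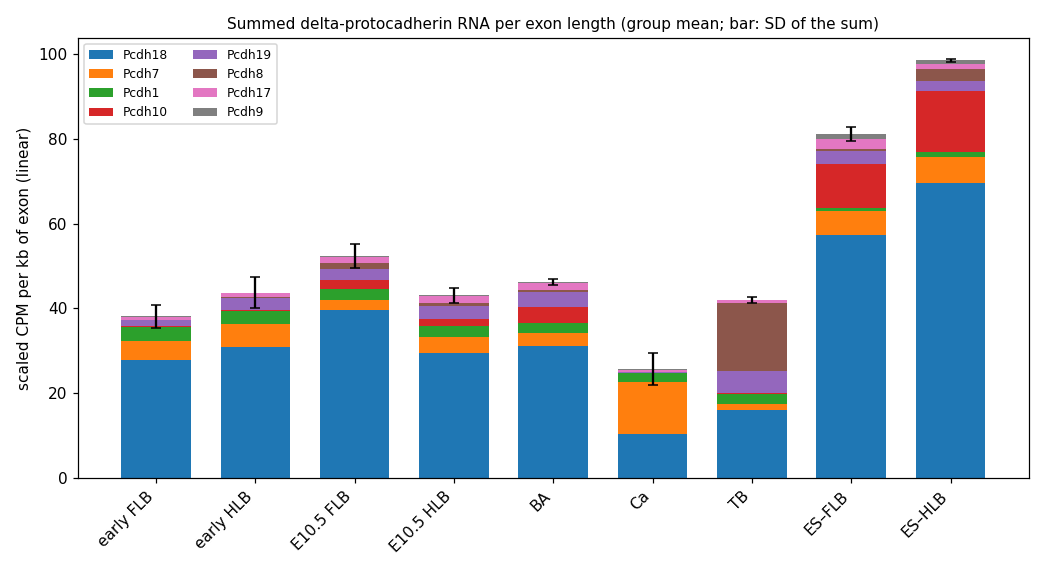
Summed delta-protocadherin RNA by group: the vertical axis gives scaled CPM per kb of exon on a linear scale, each coloured block is the group mean of 1 gene, and the bar is the SD of the sum over libraries (n = 3, or 2 in E10.5 HLB). Both ES cell-derived groups stand at 81.2 and 98.5 CPM per kb against 25.7 to 52.4 in the embryonic groups, and Pcdh8 fills 37.9% of the tail bud column.

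Among the delta1 members, Pcdh1 varied least over the embryonic groups. Its level was 26.3, 31.3 and 29.0 CPM in the 3 early FLB libraries, 24.5, 26.7 and 31.8 CPM in early HLB, 19.7, 18.9 and 25.7 CPM in E10.5 FLB, and 21.5 and 23.3 CPM in E10.5 HLB. In BA it was 21.7, 17.5 and 19.7 CPM, in Ca 17.6, 17.0 and 20.0 CPM, and in TB 18.9, 22.0 and 21.0 CPM. It was lowest in the sorted cells, at 6.08, 4.96 and 4.49 CPM in ES–FLB and 10.9, 11.2 and 10.9 CPM in ES–HLB, with no overlap with any embryonic library. In the order of embryonic means, from early FLB (28.9 CPM) down to Ca (18.2 CPM), no neighbouring pair passed the test (adjusted p = 0.103 to 0.802, limma with Benjamini-Hochberg adjustment), and over the 7 embryonic groups the means spanned 1.59-fold.

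Pcdh7, first described as a protocadherin of brain and heart, was highest in the heart. In Ca its level was 134, 123 and 131 CPM, and in TB 15.7, 17.4 and 15.7 CPM, the highest and the lowest of the 9 groups. In the early buds it was 43.6, 41.1 and 57.8 CPM (FLB) and 49.4, 62.8 and 60.3 CPM (HLB), and at E10.5 it was 28.1, 24.5 and 27.8 CPM (FLB) and 39.5 and 40.0 CPM (HLB). BA lay between the E10.5 buds at 35.7, 32.4 and 33.3 CPM, and ES–FLB (59.2, 68.3 and 55.5 CPM) and ES–HLB (61.2, 70.1 and 60.3 CPM) overlapped the early HLB. The heart libraries thus stood above all others, whereas the order of early FLB, E10.5 HLB and BA was not resolved between neighbours (adjusted p = 0.0883 and 0.109, limma).

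Pcdh9, a delta1 member best known from the brain, was at 8.61 CPM or less in every library. It was at 0.356, 0.0997 and 0.257 CPM in early FLB and 0.442, 0.364 and 0.217 CPM in early HLB, around the floor of 3 reads. At E10.5 it was at 1.87, 2.14 and 2.60 CPM in FLB, 1.26 and 1.23 CPM in HLB and 1.79, 2.20 and 2.48 CPM in BA. Ca (1.33, 1.01 and 0.839 CPM) and TB (1.13, 0.701 and 0.804 CPM) were not resolved from each other (adjusted p = 0.435, limma). The sorted cells held 8.51, 8.61 and 7.17 CPM (ES–FLB) and 5.97, 5.12 and 5.49 CPM (ES–HLB), above every embryonic library.

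Among the delta2 members, Pcdh8 was a tail bud gene. Its level in TB was 73.5, 74.1 and 69.0 CPM, against 7.65, 4.94 and 7.29 CPM in E10.5 FLB, 3.43 and 4.56 CPM in E10.5 HLB and 2.36, 1.04 and 2.95 CPM in BA. In Ca it was 0.133, 0.289 and 0 CPM, all under the floor, so the lowest TB library was at least 159-fold above the highest floor of a Ca library. The early buds held 1.02, 0.249 and 0.360 CPM (FLB) and 2.21, 1.56 and 2.01 CPM (HLB). ES–FLB (2.07, 1.83 and 2.31 CPM) was within the range of the embryonic tissues outside TB, and ES–HLB (12.7, 12.1 and 14.6 CPM) was above all embryonic libraries other than those of TB. Presomitic and somitic markers summed to 703 to 738 CPM in TB, 155 to 179 CPM in E10.5 FLB, 69.2 to 77.3 CPM in ES–HLB and 35.2 to 41.4 CPM in ES–FLB, while Msgn1, a defining gene of presomitic mesoderm, was at 24.8 CPM in TB and at 0 in all libraries of both ES cell-derived groups. The part of such cells in the level of Pcdh8 was not tested.

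The sequence upstream of Pcdh8 is shown because, of 7 members matched in the RefSeq promoter table, only it held the letters TATAAA. The search covered both strands of the 250 bases before the start used in that table. For Pcdh7, Pcdh9, Pcdh18 and Pcdh19 that start lies inside the gene as placed above. In Pcdh8 the letters TATAAA lie 30 to 25 bases before the start and are in capitals, and 12.4% of the 32851 promoters in that table hold them. The window is chr14:79771313-79771562 of GRCm38.p6, minus strand, and holds 11 CG pairs against a median of 6 over all promoters.

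Pcdh8: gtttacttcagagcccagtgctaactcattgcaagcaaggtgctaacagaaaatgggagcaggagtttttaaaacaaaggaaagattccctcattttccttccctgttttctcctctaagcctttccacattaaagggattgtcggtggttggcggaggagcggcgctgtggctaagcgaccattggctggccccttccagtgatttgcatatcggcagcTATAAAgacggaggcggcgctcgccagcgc

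Pcdh10, also called OL-protocadherin, had the widest range among the members outside Pcdh8. It was near absent from the early buds, at 1.02, 1.64 and 0.823 CPM in FLB and 5.45, 1.71 and 1.84 CPM in HLB, and from Ca (0.934, 1.44 and 1.40 CPM) and TB (1.88, 1.17 and 1.84 CPM). At E10.5 it was at 35.2, 32.9 and 36.4 CPM in FLB, 21.1 and 30.4 CPM in HLB and 60.9, 62.0 and 61.5 CPM in BA. The sorted cells held 147, 169 and 180 CPM (ES–FLB) and 225, 232 and 229 CPM (ES–HLB), the values by which the family was chosen. Its 9 groups thus fell into low (early buds, Ca, TB), middle (E10.5 buds, BA) and high (ES cell-derived) levels with no overlap between these 3 ranges. Within the low range no neighbouring pair passed the test (adjusted p = 0.0939 to 0.753, limma), and the step up to E10.5 HLB did (adjusted p = 5.2e-07). Replicate 1 of the early HLB, at 5.45 CPM, stood above the other libraries of the low range.

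A second RNA gave a like pattern from the other strand beside Pcdh10. 2610316D01Rik, annotated by GENCODE as a long intergenic non-coding RNA (chromosome 3, 45280437 to 45378260, minus strand, GRCm38), starts 138 bases upstream of the Pcdh10 start (45378398, plus strand) and runs away from it, so that the annotated genes do not overlap. Its r with Pcdh10 on log2(CPM + 0.5) over the 26 libraries was 0.979, the second highest among 12396 genes searched, after Iglon5 (0.981). The search took only genes above a minimum mean in their highest group. This RNA met that limit only through ES–FLB (mean 6.20 CPM) and ES–HLB (10.6 CPM). Its highest embryonic mean was 2.92 CPM, in BA. Its level was under the floor in all libraries of early FLB, Ca and TB (0 to 0.234 CPM) and 0.246, 0.208 and 0.0542 CPM in early HLB. It was 2.89, 1.32 and 1.73 CPM in E10.5 FLB, 1.44 and 1.93 CPM in E10.5 HLB, 3.14, 2.32 and 3.31 CPM in BA, 7.66, 5.22 and 5.71 CPM in ES–FLB and 11.7, 11.8 and 8.36 CPM in ES–HLB. The same low, middle and high ranges as for Pcdh10 thus did not overlap. Since this RNA was picked for its likeness to Pcdh10 over these same libraries, its levels and the correlation are a description with no test.

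The 250 bases before the Pcdh10 start are shown because they hold the start of 2610316D01Rik and end at the base before that of Pcdh10. The window is chr3:45378148-45378397 of GRCm38.p6, plus strand, and the capitals mark the 113 bases of it that lie in the first exon of 2610316D01Rik, which is read on the opposite strand. It holds 22 CG pairs, more than 85.2% of all promoters in the RefSeq table, no CANNTG (in 66.2% of promoters), 2 copies of TCACAC (in 12.3%) and 1 of TGGGAA (in 21.6%), each searched on both strands. No match of letters says anything of a factor that binds there.

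Pcdh10: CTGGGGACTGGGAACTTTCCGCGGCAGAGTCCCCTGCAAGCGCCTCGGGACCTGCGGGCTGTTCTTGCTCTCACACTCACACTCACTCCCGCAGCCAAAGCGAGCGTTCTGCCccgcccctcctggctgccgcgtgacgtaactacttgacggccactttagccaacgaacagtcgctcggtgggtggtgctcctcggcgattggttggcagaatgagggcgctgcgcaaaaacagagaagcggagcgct

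**Figure D2:**
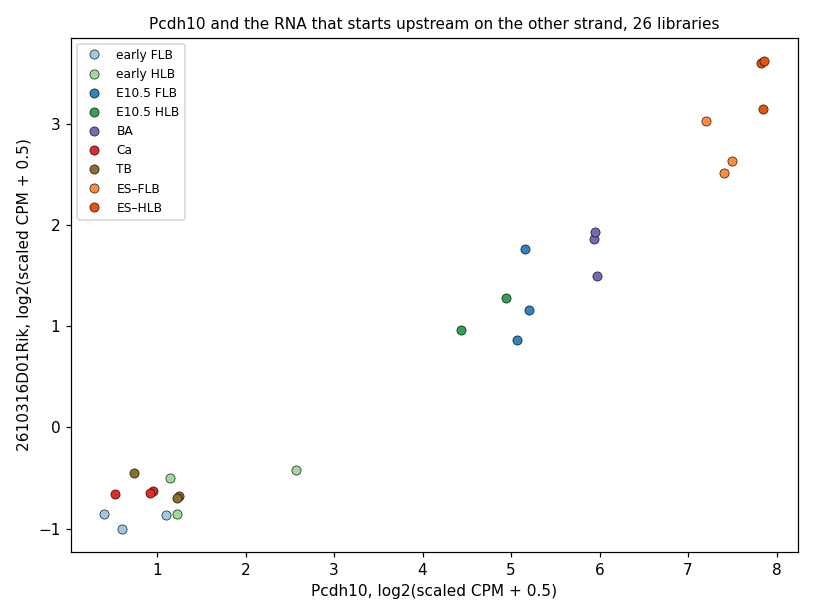
Pcdh10 on the horizontal axis against 2610316D01Rik on the vertical axis, both as log2(scaled CPM + 0.5), 1 point for each of 26 libraries, coloured by group. Early limb buds, Ca and TB lie at the lower left, E10.5 limb buds and BA in the middle and ES–FLB and ES–HLB at the upper right (r = 0.979).

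Antisense genes matter here because, without strand, reads of a gene and its antisense partner cannot be told apart. 1700027H10Rik, on the other strand over 7455 exon bases of Pcdh10, and 9630013A20Rik, opposite Pcdh17, were at 0 CPM in all 26 libraries, and 4932441J04Rik, opposite Pcdh7, reached at most 0.559 CPM. Gm9748 over Pcdh8, Gm26851 over Pcdh19 and 2010320O07Rik over Pcdh1, also on the other strand, were not analysed here. Whether the counting used strand is not given in the sources used here.

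Pcdh17, another member that binds the WAVE complex, stayed within a narrow range. Its level was 11.0, 9.52 and 9.78 CPM in early FLB, 12.7, 9.67 and 13.2 CPM in early HLB, 19.6, 18.6 and 15.1 CPM in E10.5 FLB and 21.5 and 17.6 CPM in E10.5 HLB. BA held 23.1, 19.0 and 19.7 CPM, Ca 6.94, 7.66 and 8.95 CPM, and TB 9.28, 6.55 and 9.19 CPM. The highest values were those of ES–FLB (29.3, 34.5 and 29.0 CPM), while ES–HLB (19.7, 16.2 and 16.0 CPM) overlapped BA and the E10.5 buds. BA, E10.5 HLB and E10.5 FLB were not resolved from one another as neighbours (adjusted p = 0.733 and 0.604, limma).

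Pcdh18, which made up most of the sum per length in the limb buds, was at 144, 142 and 164 CPM in early FLB, 148, 182 and 167 CPM in early HLB, 215, 201 and 220 CPM in E10.5 FLB, 153 and 164 CPM in E10.5 HLB and 167, 167 and 166 CPM in BA. It was lower in TB (91.7, 81.0 and 85.3 CPM) and lowest in Ca (43.2, 46.9 and 77.1 CPM). ES–FLB held 313, 311 and 298 CPM and ES–HLB 375, 371 and 375 CPM, with no overlap with each other or with an embryonic group. E10.5 FLB, BA, early HLB, E10.5 HLB and early FLB were not resolved between neighbours in the order of means (adjusted p = 0.0921 to 0.955), and early FLB was above TB (adjusted p = 9.19e-05) and TB above Ca (adjusted p = 0.000294, limma). The libraries of E10.5 FLB and BA did not overlap, and in the fit of these groups alone BA was lower (-0.35, adjusted p = 4.13e-06, limma). In the fit of TB and Ca alone the difference did not pass (0.70, adjusted p = 0.0565, limma).

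Pcdh19, an X-linked member whose human counterpart is a gene of epilepsy, was highest in the tail bud, like Pcdh8, but was not restricted to it. In TB it was at 50.5, 52.7 and 63.6 CPM, in BA at 36.6, 42.1 and 31.4 CPM, in E10.5 HLB at 33.7 and 30.4 CPM and in E10.5 FLB at 31.1, 25.3 and 24.8 CPM. The early HLB (28.0, 27.2 and 29.2 CPM) lay above the early FLB (17.1, 15.7 and 11.7 CPM), and Ca was near 0 (0.534, 3.47 and 1.40 CPM). ES–FLB (30.4, 33.0 and 36.2 CPM) overlapped the E10.5 buds and BA, with 1 library above every limb bud library, and ES–HLB (19.9, 23.6 and 24.8 CPM) lay between the early FLB and the early HLB. TB and BA did not overlap, but their difference did not pass the test (adjusted p = 0.12, limma). In the fit of TB and BA alone it passed (0.59, adjusted p = 0.000845, limma).

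**Figure D3:**
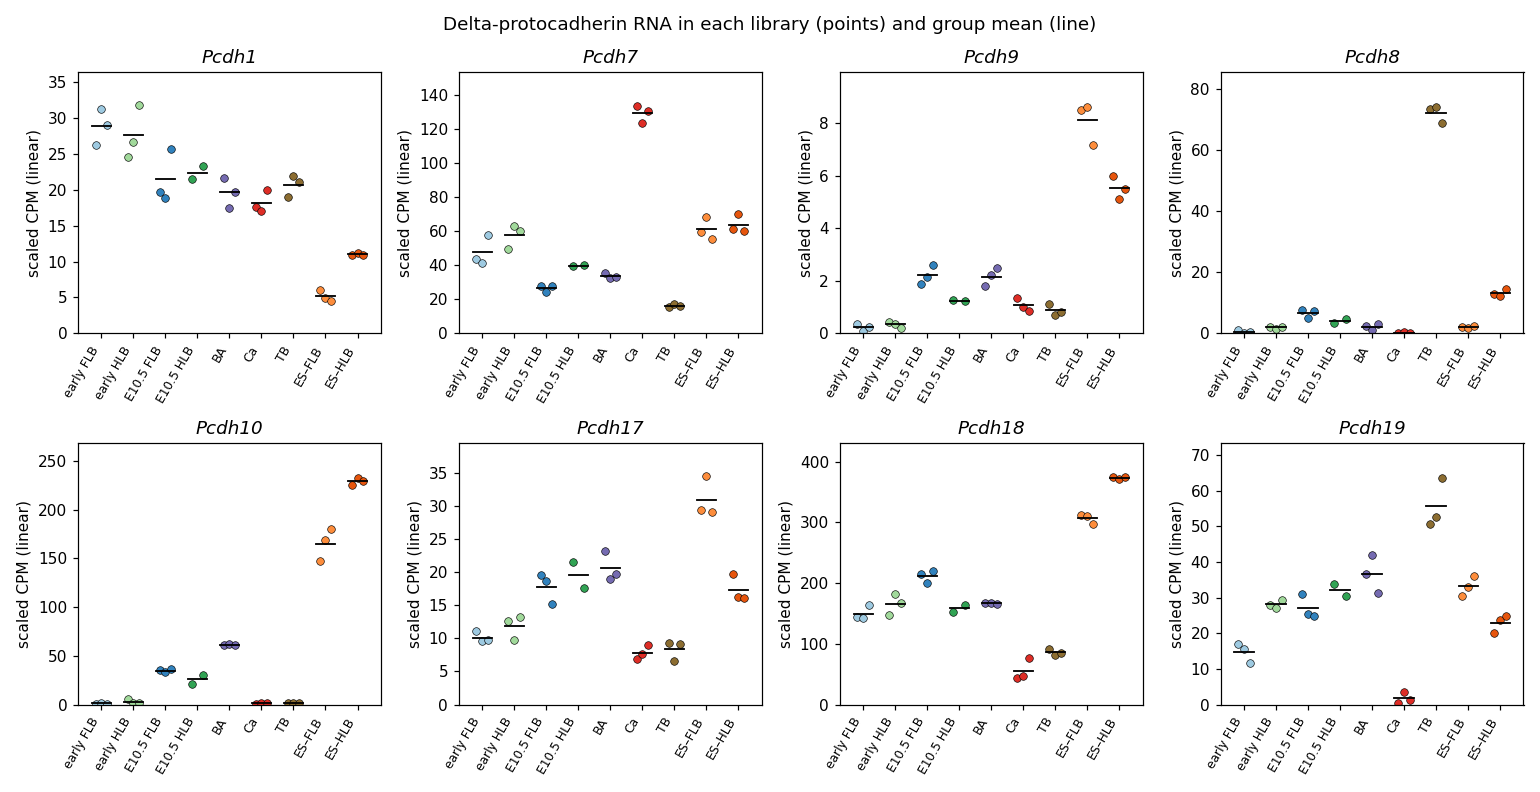
Scaled CPM (vertical axis, linear, from 0, a different range in each panel) of each of the 8 genes in every library (points) with the group mean (line), for the 9 groups along the horizontal axis. Pcdh7 peaks in Ca (129 CPM), Pcdh8 and Pcdh19 in TB (72.2 and 55.6 CPM), Pcdh10 and Pcdh18 in ES–HLB (229 and 374 CPM), and Pcdh1 is lowest in ES–FLB (5.18 CPM).

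Between the early and the E10.5 forelimb bud all 8 genes changed. Pcdh10 rose most, by a log2 fold change of 4.44 ± 0.27 (SE, adjusted p = 4.58e-11), followed by Pcdh8 (2.82 ± 0.25, adjusted p = 2.59e-11) and Pcdh9 (1.88 ± 0.20, adjusted p = 2.01e-09). Smaller rises were those of Pcdh19 (0.86 ± 0.30, adjusted p = 0.0211), Pcdh17 (0.78 ± 0.14, adjusted p = 1.58e-05) and Pcdh18 (0.50 ± 0.14, adjusted p = 0.0046). The 2 delta1 members Pcdh7 (-0.80 ± 0.10, adjusted p = 6.93e-08) and Pcdh1 (-0.43 ± 0.12, adjusted p = 0.00258) fell. Each fold change is on log2(CPM + 0.5), which understates the change of low genes, and each test is limma's over 14714 genes. The background was high: 58.2% of all genes passed, 27.7% higher and 30.5% lower, against 8 of 8 members, 6 higher and 2 lower, and the median log2 fold change was 0.82 over the members and -0.01 over all genes. With the CPM as deposited, Pcdh1 no longer passed, and the rise of Pcdh19 was lost without early FLB replicate 3 (0.70, adjusted p = 0.0911) or E10.5 FLB replicate 1 (0.75, adjusted p = 0.0727), and with a pseudocount of 0.1 (0.87, adjusted p = 0.0536).

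In the hindlimb bud 5 of 8 members passed, 4 higher and 1 lower, against 28.5% of all genes (12.4% higher, 16.1% lower). Pcdh10 (3.04 ± 0.31, adjusted p = 5.2e-07), Pcdh9 (1.06 ± 0.23, adjusted p = 0.000579), Pcdh8 (0.89 ± 0.28, adjusted p = 0.0158) and Pcdh17 (0.70 ± 0.16, adjusted p = 0.00085) rose and Pcdh7 (-0.52 ± 0.11, adjusted p = 0.00076) fell. The value for Pcdh18 was -0.06 ± 0.16 (adjusted p = 0.82), for Pcdh19 0.18 ± 0.34 (adjusted p = 0.746) and for Pcdh1 -0.29 ± 0.13 (adjusted p = 0.103, limma). The call of Pcdh8 was lost without early HLB replicate 2 (0.77, adjusted p = 0.0671) or E10.5 HLB replicate 3 (0.70, adjusted p = 0.169), and with a pseudocount of 0.1 (1.02, adjusted p = 0.0932).

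The stage change itself differed between the limb types for 2 of 8 members, against 20.4% of all genes. It was smaller in HLB than in FLB by 1.93 on the log2 scale for Pcdh8 (difference -1.93 ± 0.38, adjusted p = 0.000359) and by 1.40 for Pcdh10 (difference -1.40 ± 0.41, adjusted p = 0.0206, limma). The call of Pcdh10 was lost without early FLB replicate 3 (-1.25, adjusted p = 0.0549) and in a fit of the compared groups alone (adjusted p = 0.099, limma). Without E10.5 HLB replicate 1, which leaves a single library in that group, its value was -1.14. In the fit of the compared groups alone, Pcdh18 (-0.55, adjusted p = 0.00155) and Pcdh19 (-0.66, adjusted p = 0.012, limma) passed, both smaller in HLB. Since the early HLB is described as older than the early FLB, the interval between the stages was by that description shorter in HLB.

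Summed markers of some other cells, neural, myogenic and somitic ones among them, were higher at E10.5 in the same libraries. Those of surface ectoderm, endothelium and neural crest were lower. Surface ectoderm markers summed to 444 to 532 CPM in early FLB and 330 to 351 CPM in E10.5 FLB. In HLB their sum was 447 to 495 CPM early and 336 to 350 CPM at E10.5. Neural markers summed to 32.6 to 40.6 CPM in early FLB and 107 to 118 CPM in E10.5 FLB, of which Dcx alone was 20.8 and 90.4 CPM, while Neurod1, Neurog1, Neurog2, Pax6 and Sox1 were at 0 in every E10.5 FLB library. Myogenic markers summed to 47.7 to 49.6 CPM in early FLB and 88.0 to 94.4 CPM in E10.5 FLB, with Myod1 at 0.02 and 8.90 CPM. In the same list Lbx1 (log2 fold change 0.10 ± 0.33, adjusted p = 0.828) and Pax7 (0.29 ± 0.26, adjusted p = 0.354, limma) did not pass in FLB. In HLB the neural sum was 23.9 to 42.3 CPM early and 94.8 to 97.8 CPM at E10.5, and the myogenic sum 32.9 to 38.0 CPM and 52.8 to 57.4 CPM, where Myf5 (2.17 ± 0.26, adjusted p = 2.07e-07) and Met (0.63 ± 0.14, adjusted p = 0.000877) passed and Myod1 was at 0.47 ± 0.40 (adjusted p = 0.409, limma). In BA the neural sum was 72.5 to 255 CPM. The part of these cells in the stage changes was not tested, and depth, at least 19642074 reads in the early buds and at most 5908832 at E10.5, cannot be told apart from stage.

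**Figure D4:**
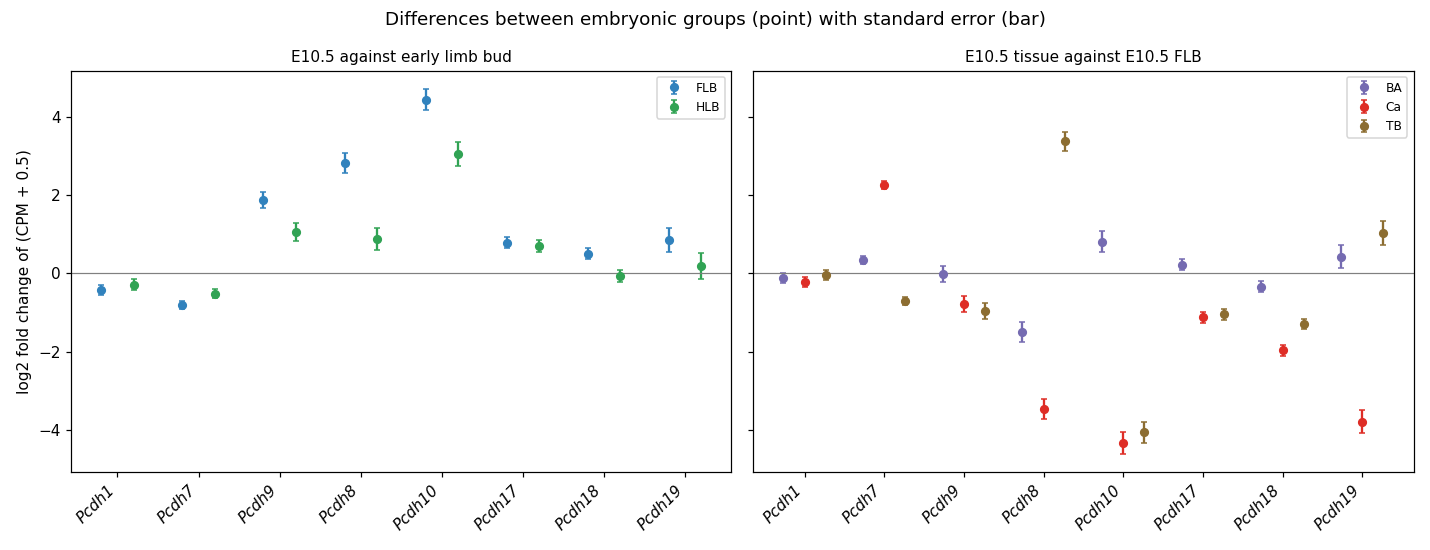
Log2 fold change of (CPM + 0.5) on the vertical axis for each of the 8 genes, with the standard error as a bar. The left panel gives E10.5 against the early limb bud in FLB and HLB, where Pcdh10 is at 4.44 and 3.04, and the right panel gives BA, Ca and TB against E10.5 FLB, where Pcdh8 is at 3.37 in TB and Pcdh7 at 2.25 in Ca, while the point of Pcdh8 in Ca, under the floor there, depends on the 0.5 that was added.

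Of the hindlimb and forelimb differences within the embryo, few were firm. At the early stage 4 of 8 members were higher in HLB and none lower, against 18.6% of all genes (8.37% higher, 10.2% lower). These were Pcdh8 (1.28 ± 0.25, adjusted p = 0.000298), Pcdh10 (0.95 ± 0.27, adjusted p = 0.0194), Pcdh19 (0.92 ± 0.30, adjusted p = 0.0411) and Pcdh7 (0.28 ± 0.10, adjusted p = 0.0497, limma). Pcdh8 passed in all 6 fits without 1 library, Pcdh7 was lost in 4 of them, Pcdh10 in 3 and Pcdh19 in all 6 (adjusted p up to 0.159). In the fit of these 6 libraries alone Pcdh19 passed (adjusted p = 0.000773) and Pcdh10 did not (adjusted p = 0.14). Without early HLB replicate 1 the value of Pcdh10 was 0.49 (adjusted p = 0.0585). At E10.5 only Pcdh7 passed, higher in HLB by 0.56 ± 0.11 (adjusted p = 0.000605), 1 of 8 members against 20.6% of all genes. Pcdh9 was at -0.62 ± 0.23 (adjusted p = 0.0501, limma) and passed, lower in HLB, under 7 other settings of scaling, filter, pseudocount, variance model, block or libraries and without E10.5 FLB replicate 1 (-0.71, adjusted p = 0.0435). With the 2 compared groups alone 4 members passed, Pcdh8, Pcdh10 and Pcdh18 lower in HLB beside Pcdh7.

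Between the ES cell-derived groups the limb type difference was sharper for single genes. Pcdh8 was higher in ES–HLB than in ES–FLB by a log2 fold change of 2.41 ± 0.25 (adjusted p = 9.02e-09) and Pcdh1 by 1.03 ± 0.12 (adjusted p = 8.04e-08), and Pcdh17 was lower by 0.82 on this scale (-0.82 ± 0.14, adjusted p = 4.11e-05). That is 3 of 8 members, 2 higher and 1 lower, against 19.8% of all genes (10.9% higher, 8.94% lower). The other 5 were at 0.48 ± 0.27 (Pcdh10, adjusted p = 0.265), 0.28 ± 0.14 (Pcdh18, adjusted p = 0.182), 0.07 ± 0.10 (Pcdh7, adjusted p = 0.716), -0.51 ± 0.20 (Pcdh9, adjusted p = 0.0779) and -0.54 ± 0.30 (Pcdh19, adjusted p = 0.253, limma). For 4 of these the libraries did not overlap, and in a fit of these 6 libraries alone, whose replicates lie close together, 7 of 8 members passed, with adjusted p = 2.47e-07 for Pcdh10, 3.94e-07 for Pcdh18, 4.22e-05 for Pcdh19 and 0.0143 for Pcdh9. Whether Pcdh10 differed between the cultured limb types thus rested on which libraries set the spread.

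Pluripotency markers summed to 76.5 to 109 CPM in ES–HLB and 18.1 to 25.0 CPM in ES–FLB, and surface ectoderm markers to 220 to 240 CPM and 132 to 181 CPM. The sort gene Hand2 was itself at 244, 222 and 240 CPM in ES–HLB and 163, 165 and 141 CPM in ES–FLB. Their part in the member differences was not tested.

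The difference between limb types in culture was set against that of the early embryo, and 4 of 8 members differed, against 19.7% of all genes. In culture, limb type cannot be told apart from retinoic acid or its antagonist, and in the early embryo not from stage. The excess in the cultured hindlimb type over the embryonic one was 1.09 ± 0.17 for Pcdh1 (adjusted p = 1.33e-05) and 1.13 ± 0.35 for Pcdh8 (adjusted p = 0.0221), and the deficit was -1.03 ± 0.20 for Pcdh17 (adjusted p = 0.000235) and -1.45 ± 0.43 for Pcdh19 (adjusted p = 0.0221, limma). Pcdh8 was thus higher in the hindlimb type both in the early embryo and in culture. At E10.5 it was not, at 3.43 and 4.56 CPM in HLB against 4.94 to 7.65 CPM in FLB (adjusted p = 0.0966, limma). Pcdh19 was higher in HLB in the early embryo and at -0.54 in culture. That early difference of Pcdh19 did not pass in any of the 6 fits without 1 library. Pcdh8 was lost without early FLB replicate 1 (0.82, adjusted p = 0.106), early HLB replicate 2 (1.01, adjusted p = 0.0569), ES–FLB replicate 2 (1.06, adjusted p = 0.0526) or ES–HLB replicate 3 (1.05, adjusted p = 0.0553). Pcdh19 was lost without early FLB replicate 3 (-1.30, adjusted p = 0.0583) or ES–HLB replicate 1 (-1.36, adjusted p = 0.0505). With a pseudocount of 0.1 both were lost, Pcdh8 at 0.78 (adjusted p = 0.396) and Pcdh19 at -1.48 (adjusted p = 0.0609). In the fit of the compared groups alone both passed, Pcdh8 at 1.12 (adjusted p = 0.0127) and Pcdh19 at -1.46 (adjusted p = 2.53e-06, limma).

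**Figure D5:**
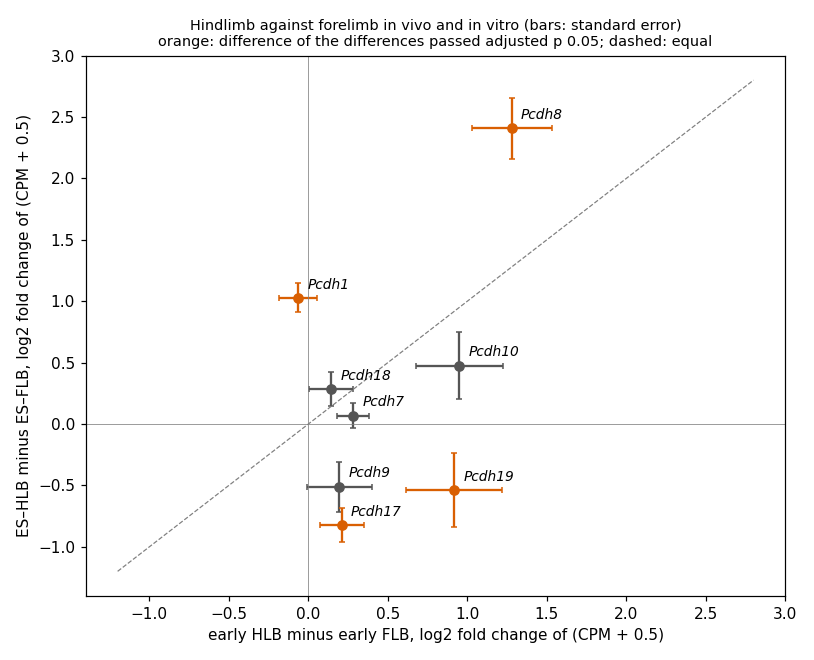
Hindlimb minus forelimb difference of the 8 genes in the early embryo (horizontal axis) and in ES cell-derived mesenchyme (vertical axis), both as log2 fold change of (CPM + 0.5), with standard errors as bars and equality as the dashed line. Pcdh1 and Pcdh8 lie above the line and Pcdh17 and Pcdh19 below it, the 4 genes in orange for which the difference between the axes passed an adjusted p of 0.05.

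The other E10.5 tissues were each compared with E10.5 FLB. In Ca, 7 of 8 passed, 1 higher and 6 lower, against 73.6% of all genes (38.3% higher, 35.3% lower). Pcdh7 was higher by 2.25 ± 0.10 (adjusted p = 3.62e-18), and Pcdh10 (-4.34 ± 0.27, adjusted p = 2.11e-11), Pcdh19 (-3.79 ± 0.30, adjusted p = 1.48e-09), Pcdh18 (-1.96 ± 0.14, adjusted p = 2.36e-10), Pcdh17 (-1.13 ± 0.14, adjusted p = 1.2e-08) and Pcdh9 (-0.80 ± 0.20, adjusted p = 0.000828) were lower. Pcdh8, under the floor in Ca, was at least 11.4-fold lower there (lowest E10.5 FLB library over the highest floor of a Ca library). Pcdh1 was at -0.22 ± 0.12 (adjusted p = 0.0983, limma), and passed without E10.5 FLB replicate 2 (-0.30, adjusted p = 0.042) and with the CPM as deposited. Cardiomyocyte markers summed to 17127 to 20706 CPM in Ca, and erythroid markers to 24947 to 36233 CPM, which takes up part of each library's total. The part of this in the member differences was not tested.

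In TB, 7 of 8 passed, 2 higher and 5 lower, against 45.3% of all genes (24.1% higher, 21.2% lower). Pcdh8 (3.37 ± 0.25, adjusted p = 7.67e-13) and Pcdh19 (1.02 ± 0.30, adjusted p = 0.00965) were higher. Pcdh10 (-4.07 ± 0.27, adjusted p = 3.2e-10), Pcdh18 (-1.30 ± 0.14, adjusted p = 3.64e-07), Pcdh17 (-1.05 ± 0.14, adjusted p = 1.81e-07), Pcdh9 (-0.98 ± 0.20, adjusted p = 0.000199) and Pcdh7 (-0.70 ± 0.10, adjusted p = 1.27e-06, limma) were lower. Against the E10.5 HLB, 5 of 8 members differed from TB, against 38.5% of all genes, and Pcdh8 was again higher in TB (4.03 ± 0.28, adjusted p = 2.52e-13).

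BA was closest to the limb bud, with 3 of 8 members past the test, against 20.6% of all genes. Pcdh8 was lower (-1.50 ± 0.25, adjusted p = 2.55e-05), and Pcdh10 (0.81 ± 0.27, adjusted p = 0.0419) and Pcdh7 (0.33 ± 0.10, adjusted p = 0.0168, limma) were higher. The call of Pcdh10 was lost in each of the 6 fits that left out 1 BA or E10.5 FLB library (0.77 to 0.84, adjusted p = 0.0749 to 0.109) although the libraries of BA and E10.5 FLB did not overlap. It was also lost with a pseudocount of 0.1 (0.82, adjusted p = 0.086). That of Pcdh7 was lost without BA replicate 1 (0.29, adjusted p = 0.0767) or E10.5 FLB replicate 2 (0.27, adjusted p = 0.0995). In the fit of BA and E10.5 FLB alone both passed, Pcdh10 at 0.81 (adjusted p = 2.96e-09) and Pcdh7 at 0.33 (adjusted p = 0.00821, limma). Between the 3 tissues other than limb bud, 7 of 8 members differed between BA and Ca (73.9% of all genes), 6 between TB and BA (44.1%) and 4 between TB and Ca (73.1%). These comparisons share libraries with one another and are not independent.

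The ES cell-derived mesenchyme, set beside the embryonic bud of its own type, is described with no test. In ES–FLB against early FLB the log2 difference was 6.66 ± 0.27 for Pcdh10 (SE), 3.55 ± 0.20 for Pcdh9, 1.57 ± 0.14 for Pcdh17, 1.37 ± 0.25 for Pcdh8, 1.15 ± 0.30 for Pcdh19, 1.04 ± 0.14 for Pcdh18, 0.37 ± 0.10 for Pcdh7 and -2.38 ± 0.12 for Pcdh1. In ES–HLB against early HLB it was 6.19 ± 0.27 for Pcdh10, 2.85 ± 0.20 for Pcdh9, 2.49 ± 0.25 for Pcdh8, 1.18 ± 0.14 for Pcdh18, 0.53 ± 0.14 for Pcdh17, 0.15 ± 0.10 for Pcdh7, -0.30 ± 0.30 for Pcdh19 and -1.28 ± 0.12 for Pcdh1. Pcdh8, Pcdh9, Pcdh10, Pcdh17 and Pcdh18 were above and Pcdh1 below the early bud in both limb types, with no overlap of libraries. Against the E10.5 bud, which shares the ES cell-derived libraries with these values, Pcdh10 was at 2.22 ± 0.27 in ES–FLB and 3.15 ± 0.31 in ES–HLB, and against BA, the embryonic tissue with most Pcdh10, the mean of both was at 1.65 ± 0.24. Pcdh8 lay below the E10.5 bud in ES–FLB (-1.45 ± 0.25) and above it in ES–HLB (1.61 ± 0.28).

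Of the delta-protocadherins not among the 8, Pcdh11x and Pcdh20 were scarce. Pcdh11x was at 0.356, 0.249 and 0.412 CPM in early FLB and 1.02, 1.15 and 1.91 CPM in E10.5 FLB (log2 fold change 1.12 ± 0.25, adjusted p = 0.000267, limma). In ES–FLB it was at 4.50, 3.52 and 3.89 CPM and in ES–HLB at 2.92, 1.71 and 2.15 CPM, lower in the hindlimb type (-0.71 ± 0.25, adjusted p = 0.0408, limma). Pcdh20 reached 2.55 CPM, its highest value, in ES–FLB. The non-delta Pcdh12, a vascular endothelial protocadherin, was at 14.1 to 23.3 CPM in the embryonic libraries and 0.851 to 1.99 CPM in the sorted ones, where endothelial markers were also low.

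Genes of proteins that act with the family inside the cell were set beside the 58.2% of all genes that passed with stage in FLB and the 19.8% that passed between the ES cell-derived groups. Of 10 WAVE complex genes tested, 4 rose and 5 fell between early and E10.5 FLB (median log2 fold change -0.13), led by the leukocyte subunit gene Nckap1l (2.12 ± 0.27, adjusted p = 6.17e-08, limma). Between ES–HLB and ES–FLB 1 of the 10 passed, Wasf1, which encodes a WAVE subunit (-0.40 ± 0.07, adjusted p = 3.19e-05, limma). Of 8 genes listed as other partners (protein phosphatase 1 catalytic subunits, TAO kinases, Set and Taf1, the last a gene of a general transcription factor subunit and not a known partner), 1 rose and 3 fell with stage in FLB and none passed between the ES cell-derived groups. Of 9 catenin genes, which link classical cadherins to actin, 3 rose and 4 fell with stage in FLB, with the largest change in Ctnna2 (0.91 ± 0.27, adjusted p = 0.0041, limma). Between ES–HLB and ES–FLB 2 catenin genes were higher and 3 lower, with Ctnna2 at -1.05 ± 0.27 (adjusted p = 0.00456) and Ctnna3 at 0.83 ± 0.22 (adjusted p = 0.00588, limma).

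Cadherins outside the protocadherins are calcium-dependent adhesion molecules, most of which bind catenins through their tail, while Cdh13 (T-cadherin) has no such tail. Of 15 tested, 9 rose and 3 fell between early and E10.5 FLB (median log2 fold change 0.64, against 0.82 over the delta-protocadherins and 58.2% of all genes past the test), with Cdh15 of muscle precursors at 3.04 ± 0.26 (adjusted p = 1.07e-11), Cdh20 at -2.30 ± 0.28 (adjusted p = 2.04e-08) and Cdh10 at 1.87 ± 0.22 (adjusted p = 1.45e-08). Between ES–HLB and ES–FLB, where 19.8% of all genes passed, 5 were higher and 4 lower, Cdh3 (P-cadherin) by 1.66 ± 0.11 (adjusted p = 2.91e-11), Cdh8 by -1.78 ± 0.28 (adjusted p = 1.02e-05) and Cdh13 by -1.53 ± 0.23 (adjusted p = 8.02e-06, limma). Differences between these lists and the delta-protocadherins were not tested.

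For 7 of the 8 members, the 3 genes with the most similar pattern over the 26 libraries were found among the 12396 genes searched, as a description. For Pcdh8 these were Dmrt2 (r = 0.926), a somite transcription factor gene that was at 92.2 CPM in TB and at most 10.1 CPM elsewhere, Ifitm1 (0.922) and Chl1 (0.885). Pcdh10 had Iglon5 (0.981), whose group means ran from 4.28 CPM in Ca to 43.8 CPM in ES–FLB, 2610316D01Rik (0.979) and Plscr3 (0.971). For Pcdh7 they were F2r (0.940), the thrombin receptor gene, Nid1 (0.919) and Pde3a (0.909). Pcdh9 had Ssbp2 (0.985), Trp53inp1 (0.977) and Stx5a (0.977), and Pcdh18 had Trio (0.957), Rnf122 (0.952) and Marcks (0.952). Pcdh19 was most like Vangl2 (0.941), a planar cell polarity gene, B4galnt4 (0.938) and Mycl1 (0.937), and Pcdh17 most like Rxra (0.936), Gpt2 (0.920) and Zscan2 (0.920). No member was among the 3 most similar genes of another, and over the 9 group means r between members ran from -0.905 (Pcdh1 with Pcdh9) to 0.900 (Pcdh10 with Pcdh17).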

How the data were processed

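Per the labels and the study's methods, the authors mapped reads of 27 stranded mRNA libraries to mm10 with HISAT2 2.0.4, quantified genes with Cuffdiff, tested with edgeR 3.16.2 and deposited a CPM table. The strand setting of the counting is not given in the sources used here. Values were used as deposited and not treated as counts. The depth is an estimate from the spacing of low values.

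Libraries were scaled by trimmed, unweighted log ratios (30% of ratios and 5% of intensities removed). The 14714 genes that reached 1 CPM in 2 libraries were fitted on log2(CPM + 0.5) with limma 3.58.1 (R 4.3.3, trend and robust) in 1 model of 9 groups, with Benjamini-Hochberg adjustment and a threshold of 0.05. Summaries used Python 3.11.15. On simulated data for early HLB against early FLB (12973 genes), 100 of 100 genes changed 2-fold and 100 of 100 changed 4-fold were recovered, with 4 false calls. The changed genes were all above 5 CPM in early FLB and had 1 fixed spread. This recovery thus does not cover Pcdh8, Pcdh9 and Pcdh10, at 0.542, 0.237 and 1.16 CPM in early FLB. Named genes are the 8 members, the largest changes past the threshold in each list (up to 3) and the 3 most similar genes per member. The genes most similar to Pcdh1 are not reported here. Pcdh11x, Pcdh20, Pcdh12, the antisense genes and the markers quoted were chosen after their values were seen. Members and lists were chosen with earlier results of these data known. Positions of the members and sequences are from RefSeq on GRCm38.p6. Strands, exon lengths, overlapping genes and the first exon of 2610316D01Rik are from GENCODE. The alternatives were scaling, filter, pseudocount, variance model, libraries fitted, replicate block and each library left out.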

Additional observations from a re-analysis of the deposited data

Results flagged for a closer look

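A test of the difference between 2 groups' effects passed for 6 results on 5 genes. The stage change was smaller in HLB than in FLB for Pcdh8 (difference of log2 fold changes -1.93) and Pcdh10 (-1.40). The limb type difference in culture exceeded that of the early embryo for Pcdh1 (1.09) and Pcdh8 (1.13) and fell short of it for Pcdh17 (-1.03) and Pcdh19 (-1.45). With 3 libraries or fewer in each group, no single library was tested for standing apart. In both sets the early HLB is described as older than the early FLB, which cannot be told apart from limb type. Limb type in culture cannot be told apart from the treatment with retinoic acid or its antagonist.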

How the results depend on the processing

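Under the other settings, 1060 of 1119 member values kept their direction and side of the threshold, 16 lost and 43 gained a call, and none that was called reversed. Members called at E10.5 between HLB and FLB (1 as reported) numbered 2 with median-of-ratios scaling or without trend and robust estimation, 3 with CPM as deposited, no filter or pseudocount 2, and 4 with the left-out library kept or the compared groups alone. The difference of stage changes (2 as reported) gave 4 with CPM as deposited, no filter or that library kept. Early HLB against early FLB (4) gave 2 with pseudocount 0.1 or the compared groups alone, the in vitro against in vivo difference (4) gave 2 with pseudocount 0.1, and with the compared groups alone ES–HLB against ES–FLB (3) gave 7 and BA against E10.5 FLB (3) gave 5.

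With 1 library left out, members called were 1 to 2 for BA against E10.5 FLB, for early HLB against early FLB and for E10.5 HLB against FLB, and 1 to 3 for the difference of stage changes. Genes called between the E10.5 buds were 1430 to 2656, against 3027, lowest without HLB replicate 1. Of 736 member values 697 were unchanged in call, 33 lost and 6 gained it. With the longest transcript as length, the share of Pcdh18 was 68.4% in early FLB, 66.3% in early HLB, 70.5% in E10.5 FLB, 63.4% in E10.5 HLB, 60.4% in BA, 62.6% in ES–FLB and 61.9% in ES–HLB.

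Deviations of same-numbered libraries from their group means correlated at -0.0834 to 0.123. With so few libraries in a group, this does not settle whether replicate numbers pair the libraries. With the replicate number as a block, members called at E10.5 between HLB and FLB were 3 instead of 1, in the stage difference 3 instead of 2, at the early stage 3 instead of 4 and in BA 2 instead of 3. The cause of these changes was not tested.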
